A study of Mus musculus with 24 samples.

Results

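Transcripts of 9 genes that restrain signalling through the extracellular signal-regulated kinase (ERK) were measured in the medial prefrontal cortex (mPFC) of mice treated with an antidepressant, a gut bacterium or both. The genes were taken by name, as Dusp1, Dusp4, Dusp5, Dusp6, Spry1, Spry2, Spry4, Spred1 and Spred2. They were chosen with earlier results of these data known. All 9 were among the 15456 genes of the table of normalized counts, and all 9 passed the minimum mean of 10 normalized counts that 14974 genes passed. Growth factors, neurotrophins and neuronal activity switch on the small GTPase Ras, and a chain of kinases then activates ERK, which acts in the cytoplasm and in the nucleus, where it raises the transcription of early response genes. The dual-specificity phosphatases encoded by the Dusp genes remove phosphate from ERK and related kinases. Sprouty proteins (Spry) and the related Spred proteins act higher up, at the receptor, Ras and Raf. Several of these genes are themselves induced by active ERK and by neuronal firing, which is why their transcripts are often read as a trace of recent signalling.

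Male BALB/c OlaHsd mice were used at postnatal week 11. They were not put through a stress protocol, although the paper counts the daily injections as an added element of stress. Each of the 4 groups held 6 mice, with 1 library of poly(A) RNA per mouse. Control mice received only the vehicle, phosphate-buffered saline, by injection and by gavage. The paper does not give the time from the last injection to the collection of the tissue. The duloxetine group received daily intraperitoneal injections of duloxetine, a drug used against depression that inhibits the transporters of serotonin and norepinephrine. The *R. flavefaciens* group received the gut bacterium *Ruminococcus flavefaciens* by gavage, and the last group received both treatments. The mice were housed in groups, and the labels do not say which mice shared a cage. Mice are named here by their label, such as 2_3, in which the meaning of the first number is not given. The reads recovered per mouse ranged from 12811413 to 15607343. Controls had a median of 13591497 reads and mice given *R. flavefaciens* alone one of 13943370, compared with 14536037 after duloxetine and 14621655.5 after both treatments, so that the libraries of both groups given duloxetine were on the median deeper than those of the groups that were not.

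Markers of cortical excitatory neurons were abundant in every group, led by Camk2a with a mean of 52794 normalized counts. Markers of striatum, a neighbouring region, were highest in *R. flavefaciens* mouse 8_4, with a sum of 8278 normalized counts over 9 genes, and in mouse 11_4 of the combined group, with 5176, whereas the other mice lay between 2661 and 3843. Mouse 8_4 also had the highest sum of choroid plexus markers, 791 normalized counts, although Folr1, Kcne2 and Aqp1 of that list were not in the table. Results were therefore also computed without both mice, and the number of the 9 genes called was then the same in all 8 comparisons. Oligodendrocyte markers, led by Mbp, were lowest in mouse 12_4, with a sum of 12050.1 normalized counts, and highest in 12_2, with 53969, both of the combined group. In RNA from whole tissue, fewer cells of a type and less RNA per cell cannot be told apart.

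Sequences just before the transcription start were available for 7 of the 9 genes, from RefSeq on GRCm38.p6. Dusp1, Dusp6 and Spry2 are shown, to set the gene that passed the test of duloxetine (Spry2) beside 2 phosphatase genes whose values were also lower with it. Each is written from 5′ to 3′ on the strand of its gene and ends where the deposited gene begins. Capitals mark matches to the motifs searched.

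Dusp1, minus strand, chr17:26508520-26508722: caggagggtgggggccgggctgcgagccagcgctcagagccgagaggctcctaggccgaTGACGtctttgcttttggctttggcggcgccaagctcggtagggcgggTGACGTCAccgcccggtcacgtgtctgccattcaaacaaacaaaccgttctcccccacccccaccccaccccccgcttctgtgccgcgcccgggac
Dusp6, plus strand, chr10:99262981-99263230: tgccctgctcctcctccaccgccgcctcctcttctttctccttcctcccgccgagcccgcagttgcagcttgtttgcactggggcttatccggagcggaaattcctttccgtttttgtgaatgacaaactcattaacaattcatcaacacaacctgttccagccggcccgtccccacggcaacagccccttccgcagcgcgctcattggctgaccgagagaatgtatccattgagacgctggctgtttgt
Spry2, minus strand, chr14:105896820-105897069: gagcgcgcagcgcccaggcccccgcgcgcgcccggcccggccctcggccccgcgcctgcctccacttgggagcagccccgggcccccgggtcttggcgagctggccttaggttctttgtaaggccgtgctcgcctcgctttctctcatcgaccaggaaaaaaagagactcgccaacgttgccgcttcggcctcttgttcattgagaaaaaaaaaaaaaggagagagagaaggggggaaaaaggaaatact

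The motifs, searched on both strands of the 250 bases before the RefSeq start, were the full cyclic AMP response element TGACGTCA, its core TGACG, which lies inside the full element, the AP-1 site TGACTCA, and the CArG box bound by serum response factor. The RefSeq start of Dusp1 lies 47 bases inside the deposited gene, and the part of the window within the gene is not printed. Dusp1 held the full element 143 to 136 bases before its RefSeq start, which is 96 to 89 bases back from the last base printed, and a further core farther out. The full element was found in 1.55% of 32851 promoters, the core in 17.8%, the AP-1 site in 4.46% and the CArG box in 1.47%. Dusp5 held 2 CArG boxes side by side, the nearer ending 63 bases before its RefSeq start, and 1 core. Spred2 held 1 core, which lies inside the deposited gene, and the windows of Dusp6, Spry1, Spry2 and Spred1 held none of these letters. Dusp4 and Spry4 are named only.

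To compare levels between genes, normalized counts were divided by the length of the exons in kilobases. Spred1 was the most abundant, with 737 ± 87.1 normalized counts per kilobase (SD, n = 24 mice), and was above the next gene, Dusp6, in all 24 mice. Dusp6 followed with 434 ± 99.6, Spry2 with 404 ± 46.5 and Spred2 with 402 ± 49.2 per kilobase. These 3 were not separated, since Dusp6 was above Spry2 in 13 mice and Spry2 above Spred2 in 11 of 24. The order of the last pair differed between groups, with mean levels per kilobase of 431 for Spry2 and 429 for Spred2 in controls, 368 and 404 with duloxetine, 451 and 406 with *R. flavefaciens* and 366 and 369.8 with both. Dusp1 had 174 ± 43.0 per kilobase and was above Spry4 in all 24 mice. Spry4, at 87.9 ± 16.2, and Dusp4, at 84.4 ± 21.1, overlapped, with Spry4 higher in 16 mice. Here too the order differed between groups, from 93.8 for Spry4 and 96.1 for Dusp4 in controls to 78.5 and 68.8 with both treatments. Dusp5 had 61.6 ± 14.03 and Spry1 the lowest level, 30.8 ± 5.49 per kilobase. The level of Spred1 was above that of 94.8% of the genes tested and that of Spry1 above 33.6%. Lengths were taken within the deposited intervals, which for Dusp1 and Spry4 differ from those of the annotation.

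**Figure D1:**
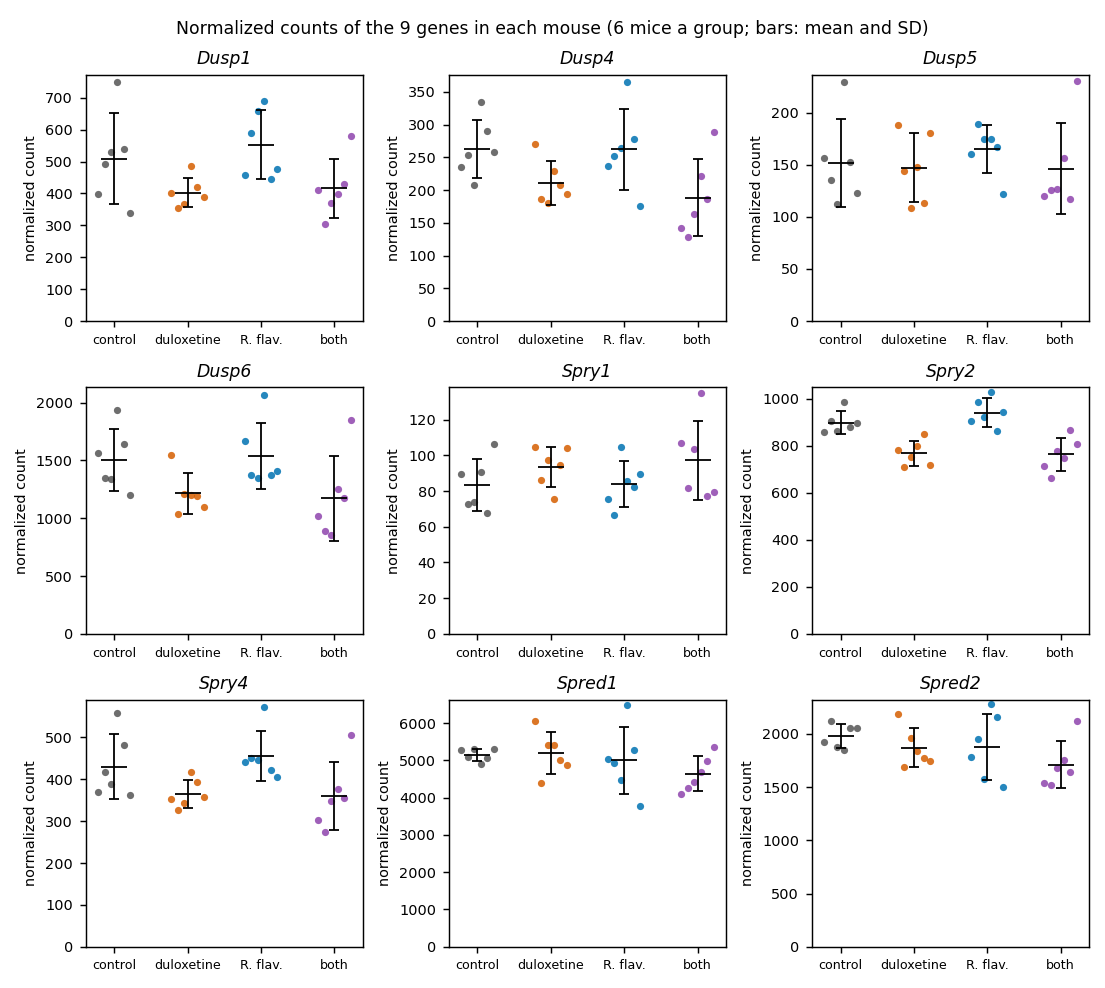
Normalized counts (vertical axis, from 0) of the 9 genes in each mouse, by group, with 6 points a group and bars for the mean and SD. In the Spry2 panel the 6 duloxetine points, from 710.2 to 852, lie below the 6 control points, from 859 to 988, while these 2 groups overlap for the other 8 genes.

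Duloxetine was compared with its absence in mice without and with the bacterium, and the average of both differences was tested as the effect of duloxetine. Spry2 (ENSMUSG00000022114.5, chromosome 14, 105891947 to 105896819 on GRCm38) was the gene among the 9 that passed the test. Sprouty 2 is an adaptor that is phosphorylated after receptor activation and limits the passage of the signal to Ras and Raf. Control mice had from 859 to 988 normalized counts of Spry2, with a median of 888. Mice given duloxetine alone had from 710.2 to 852, with a median of 768. All 6 duloxetine mice lay below all 6 controls. Mice given *R. flavefaciens* alone had from 863 to 1030.4, with a median of 933. Mice given both treatments had from 664 to 868, with a median of 764. Of these, 5 lay below every mouse of the *R. flavefaciens* group, and mouse 12_3 overlapped it. Taking the 12 mice with duloxetine together, 11 lay below the lowest of the 12 mice without it, 859, and all 12 lay below the median of the mice without it, 905.

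Averaged over mice with and without the bacterium, Spry2 fell by 0.27 on the log2 scale (SE 0.042), a change of -16.8%, with an adjusted p of 0.00402 in limma. It ranked 3 by p among all genes tested. In this comparison 154 genes, 1.03% of those tested, passed the same threshold of 0.05, of which 74 were higher. With rescaling to the 75th percentile, 97 of 144 were higher. Spry2 was called by edgeR and DESeq2 as well, and with mice 8_4 and 11_4 left out its adjusted p was 0.0114. In the comparison of both treatments with *R. flavefaciens*, Spry2 fell by 0.31 (SE 0.059, adjusted p = 0.011, limma), where 2.23% of genes passed. With only these 2 groups in the fit, the adjusted p was 0.0967, and no gene of all those tested passed.

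With duloxetine against control, in which 6 mice were compared with 6, the log2 difference of Spry2 was -0.23 (SE 0.059). Its exact two-sided permutation p was 0.00216, the smallest that 924 groupings can give, and is 1 of 45 such tests over the 9 genes and 5 pairs of groups, not adjusted. Groups that did not overlap in this direction were found for 0.167% of all genes. The adjusted p was 0.907, and 0% of the genes passed the adjusted threshold in limma. The count of the 9 genes past the adjusted threshold was 0 by limma, edgeR and DESeq2 alike, and 2 of the 9, Dusp6 and Spry2, had an unadjusted limma p under 0.05 with lower values, as did 1.63% of all genes. Both treatments were set against the same control mice, where the log2 difference of Spry2 was -0.24 (SE 0.059, adjusted p = 0.0819, limma), and DESeq2 gave an adjusted p of 0.0239. Here 15 of all genes tested, 0.1%, passed in limma, and DESeq2 called 217.

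**Figure D2:**
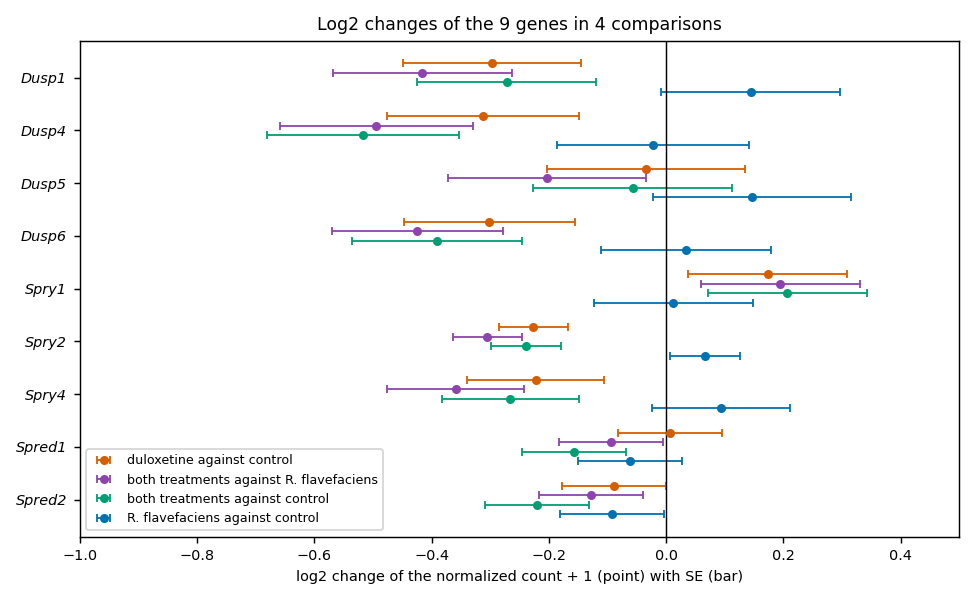
Log2 change (horizontal axis, points) with its standard error (bars) for each gene in 4 comparisons of 6 mice with 6, from 1 limma fit. The points for Spry2 lie at -0.23, -0.31 and -0.24 in the comparisons with duloxetine and at 0.066 for *R. flavefaciens* against control, and their bars are the shortest.

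Dusp6, Dusp4, Dusp1 and Spry4 also had lower values with duloxetine, but did not pass the adjusted threshold in limma. With Spry2, these made 5 of the 9 genes with an unadjusted p under 0.05 and a lower value for the average effect of duloxetine, against 7.49% of all genes. None of the 9 had such a p with a higher value, against 7.44% of all genes. Because the 9 were chosen with earlier results of these data known, these shares are a description and not a test. The median log2 difference was -0.27 over the 9 genes and 0.0027 over all genes tested. The same 5 genes had an unadjusted p under 0.05 with both treatments against *R. flavefaciens*, in which 9.9% of all genes were lower at that level. For both treatments against control these were Dusp4, Dusp6, Spry2, Spry4 and Spred2, with 8.73% of all genes.

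Dusp6 (ENSMUSG00000019960.8, chromosome 10, 99263231 to 99267489) encodes the cytoplasmic phosphatase that acts on ERK with high selectivity. Control mice had from 1197 to 1933 normalized counts (median 1455), and duloxetine mice from 1036 to 1544 (median 1196). *R. flavefaciens* mice had from 1346 to 2069 (median 1392), and mice with both treatments from 851 to 1852 (median 1098). Of the duloxetine mice 3 lay below every control and 5_1 reached far into the control range, and of the mice with both treatments 5 lay below every *R. flavefaciens* mouse and 12_4 did not. The average log2 difference with duloxetine was -0.36 (SE 0.10, adjusted p = 0.0807, limma). Without mouse 12_4 it was -0.43 with an adjusted p of 0.0105, and without mouse 5_1 the adjusted p was 0.0466. Both mice had the highest value of their group, so leaving either out enlarged the fall. Without control mouse 2_3, the difference for duloxetine against control shrank from -0.30 to -0.23. The share of all genes called with a mouse left out is not given here.

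Dusp4 (ENSMUSG00000031530.6, chromosome 8, 34807297 to 34819894), a nuclear phosphatase of the same family, had from 208 to 335 normalized counts in controls (median 256) and from 180.3 to 270.1 with duloxetine (median 201). It had from 175 to 365 with *R. flavefaciens* (median 259) and from 129 to 288 with both treatments (median 175). The lowest values of the 24 mice were those of 11_3, 10_2 and 11_4, all of the combined group, but 12_4 of that group was above 4 of the 6 controls. The average log2 difference with duloxetine was -0.40 (SE 0.12, adjusted p = 0.0836, limma), the largest in size among the 9 genes. DESeq2 gave an adjusted p of 0.0413. Without mouse 12_4 the limma value was 0.0197, and without mouse 9_3 it was 0.0409. Leaving out 12_4, the highest of its group, or 9_3, the lowest of its group, enlarged the fall. Without control mouse 2_3, the difference for duloxetine against control shrank from -0.31 to -0.24.

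Dusp1 (ENSMUSG00000024190.6, chromosome 17, 26505590 to 26508519), which encodes a nuclear phosphatase of ERK and of the stress-activated kinases and is an early response gene itself, ranged from 338 to 750.5 normalized counts in controls (median 512). With duloxetine it ranged from 356 to 485 (median 394). It ranged from 445 to 691 with *R. flavefaciens* (median 533) and from 304 to 582 with both treatments (median 403). In the last pair of groups 5 of 6 mice with both treatments lay below every *R. flavefaciens* mouse, and 12_4 was the exception. The average log2 difference with duloxetine was -0.36 (SE 0.11, adjusted p = 0.103, limma). DESeq2 gave 0.0382, and limma without mouse 12_4, the highest of its group, gave 0.0391. Without control mouse 2_3, the difference for duloxetine against control shrank from -0.30 to -0.18.

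Spry4, a Sprouty that is strongly induced by growth factor signalling, had from 362 to 559 normalized counts in controls (median 403) and from 327 to 419 with duloxetine (median 356). It had from 406 to 574 with *R. flavefaciens* (median 443) and from 274 to 507 with both treatments (median 352). All 6 duloxetine mice lay below the control mean but 2 of them within the range of the controls, and again 12_4 alone of the combined group reached into the *R. flavefaciens* range. The average log2 difference was -0.29 (SE 0.083, adjusted p = 0.0815, limma). DESeq2 gave an adjusted p of 0.0446, and limma without mouse 12_4, the highest of its group, gave 0.0146. Without control mouse 2_3, the difference for duloxetine against control shrank from -0.22 to -0.14.

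The other 4 genes had no unadjusted p under 0.05 for the average effect of duloxetine in limma. Dusp5, a nuclear phosphatase that is selective for ERK, had medians of 144 normalized counts in controls, 146 with duloxetine, 171 with *R. flavefaciens* and 126 with both, and its average log2 difference was -0.12 (SE 0.12). Spry1, the scarcest of the 9, was the gene with a positive average difference, 0.18 (SE 0.096, adjusted p = 0.372, limma). Its values ranged from 67.8 to 106 in controls, from 75.4 to 104 with duloxetine, from 66.4 to 104 with *R. flavefaciens* and from 77.4 to 135 with both. These groups overlapped broadly. Spred1 and Spred2, whose proteins bring neurofibromin, a brake on Ras, to the membrane, had average log2 differences of -0.044 (SE 0.063) and -0.11 (SE 0.063). Both had their lowest group mean with both treatments, 4638 ± 470.0 against 5152 ± 166 normalized counts in controls for Spred1, and 1708 ± 222 against 1981 ± 113 for Spred2 (SD, n = 6). The adjusted p-values of these differences were 0.364 and 0.222 in limma.

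*R. flavefaciens* alone was compared with control, and its average effect over mice without and with duloxetine was tested. None of the 9 genes passed in either comparison, by limma, edgeR or DESeq2, and 0 of 9 had an unadjusted p under 0.05 with any of these tools. Among all genes, 0.0267% passed in limma in the first comparison and 0.0267% in the second, while DESeq2 called 497, or 3.32%, and 361. At an unadjusted p under 0.05 in limma, 10.8% of all genes were lower and 8.86% higher in the first comparison. For the second these shares are not given here. The log2 differences of *R. flavefaciens* against control lay between -0.093 for Spred2 and 0.15 for Dusp5, with SEs of 0.089 and 0.17. For Spry2 the difference was 0.066 (SE 0.059).

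Whether the effect of duloxetine differed between mice with and without the bacterium was tested as the interaction of the treatments. For Spry2 the interaction was -0.079 (SE 0.083, adjusted p = 0.812, limma), that is, the log2 difference with duloxetine was -0.23 in mice without and -0.31 in mice with the bacterium. With a mouse left out this interaction ranged from -0.12 to -0.040. None of the 9 genes passed by limma, edgeR or DESeq2, none had an unadjusted p under 0.05, and 0% of all genes passed in limma. With both treatments against duloxetine, the differences lay between -0.20 for Dusp4 (SE 0.16) and 0.034 for Spry1 (SE 0.14). Again 0 of the 9 genes passed by any of the 3 tools or had an unadjusted p under 0.05, and 0% of all genes passed in limma and 1 gene in DESeq2. The share of all genes with an unadjusted p under 0.05 is not given here for this comparison or for the interaction.

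**Figure D3:**
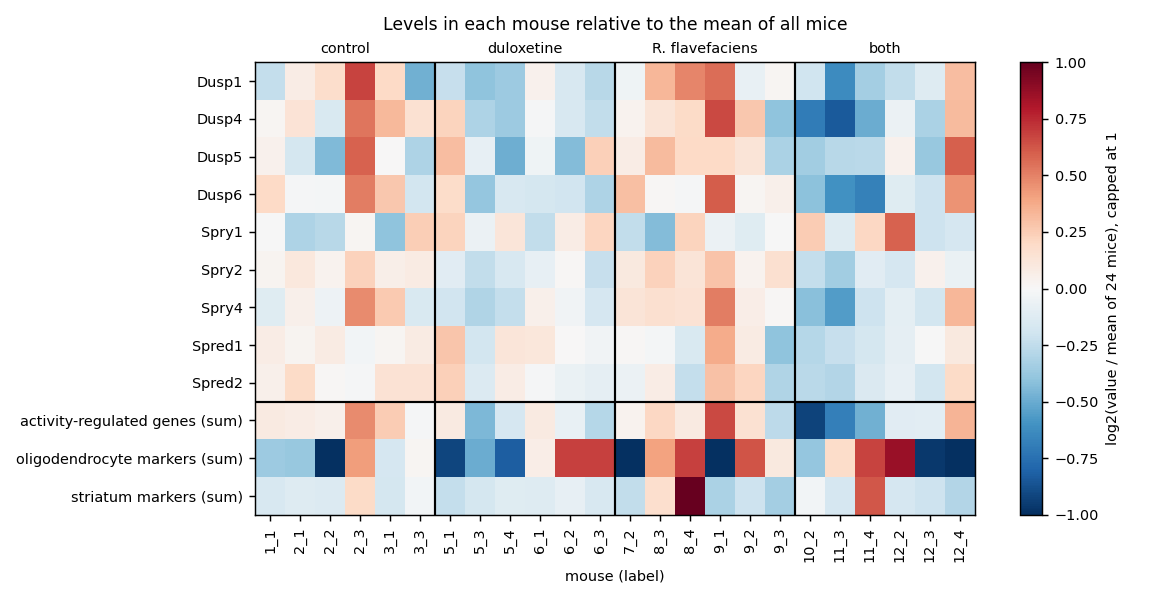
Log2 of the value in each mouse over the mean of the 24 mice (colour, capped at 1) for the 9 genes and for the sums of 3 lists of other genes, with mice in columns by group. Mice 2_3, 9_1 and 12_4 show red for most Dusp genes, for Spry4 and for the activity-regulated genes, whose sums were 43280.5, 49218 and 39492 normalized counts, while their oligodendrocyte sums were 39689, 13402 and 12050.1.

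Within the groups, the highest values of several of the 9 genes came from the same mice. Mouse 2_3 had the highest values of its group for 6 of the 9 genes, 5_1 for 6, 9_1 for 7 and 12_4 for 7, while 2_3 also had the lowest for 2, Spred1 and Spred2. Mouse 5_3 had the lowest of its group for 6 genes, 9_3 for 5 and 11_3 for 5. The sum of 23 activity-regulated early genes was also the highest of its group in 2_3, 9_1 and 12_4, and in 5_1 it was 33184 normalized counts, the highest of the duloxetine group. Oligodendrocyte markers were the lowest of their group in 5_1 and 12_4, second lowest in 9_1 and highest in 2_3. The part of tissue makeup in these deviations was not tested.

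After the group means were taken off, the 10 pairs among Dusp1, Dusp4, Dusp5, Dusp6 and Spry4 had Pearson's r from 0.55 to 0.85. Their median over the 24 mice was 0.69. These genes were grouped after their values were seen, because the same mice gave their highest values. A higher r among them was thus built into the choice. The other 26 pairs had r from -0.20 to 0.87, with a median of 0.36, so that the ranges overlap, as with Dusp4 and Spred2 (0.74) or Dusp4 and Spred1 (0.71). With the 2 mice farthest from the median of the first gene left out of each pair, the 10 pairs ranged from 0.32 to 0.82. The other 26 then ranged from -0.26 to 0.81, and the medians were 0.62 and 0.36. The closest pairs were Spred1 with Spred2 (0.87, Spearman's rho 0.81) and Dusp1 with Spry4 (0.85, rho 0.79), and without those mice r was 0.81 and 0.82. The pairs of Dusp5 rested in part on single mice. Its r with Spry4 was 0.63, and 0.32 without 2_3 and 12_4, and with Dusp6 it was 0.64, and 0.38 without them. Without 3_3 and 2_3 its r with Dusp1 was 0.40 in place of 0.55. Spry2 was related to Spry4 (r 0.68) and to Dusp1 (0.63), and Spry1 had r between -0.20 and 0.029 with the other 8 genes. These values describe mice that share a library and its depth with both genes of a pair.

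**Figure D4:**
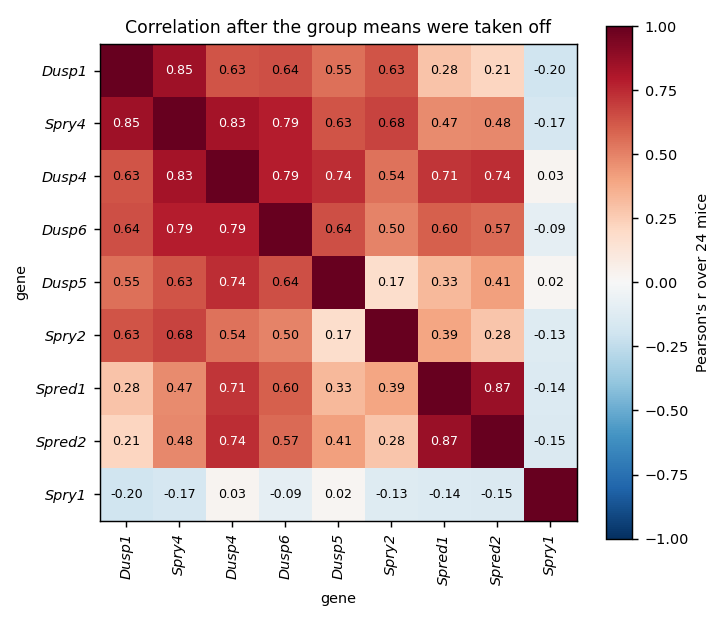
Pearson's r (colour and number) for each pair of the 9 genes over 24 mice, after the mean of each group was taken off. Dusp1, Spry4, Dusp4, Dusp6 and Dusp5, grouped after their values were seen, lie between 0.55 and 0.85. Spred1 and Spred2 are a pair at 0.87, and the Spry1 row is near 0.

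The genes most like each of the 9 across the 24 mice, with group means taken off, were sought among all other genes tested. For Dusp1 they were Arc (r 0.90), Ier2 (0.88) and Csrnp1 (0.86), and for Spry4 they were Arc (0.89), Jdp2 (0.86) and Nr4a1 (0.85). Arc is induced by synaptic activity, and Ier2 and Nr4a1 are early response genes. For Dusp4 they were Gpr3 (0.90), Midn (0.88) and Irs2 (0.88), for Dusp6 Dnajb5 (0.90), Ier5 (0.89) and Sstr3 (0.88), and for Dusp5 Sik1 (0.81), Nab2 (0.81) and Stk40 (0.79). Those of Spry2 were looser, Dcaf12 (0.75), Aoc2 (0.73) and Zbtb17 (0.72), as were those of Spry1, Tspan9 (0.75), Slc39a8 (0.73) and Arpc1b (0.72). Spred1 was most like Synj2 (0.93), D630045J12Rik (0.93) and Homer1 (0.92), and Spred2 most like Hivep3 (0.92), Ankrd33b (0.91) and Gfod1 (0.90).

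The rest of the pathway was described by lists, for the average effect of duloxetine. Of 23 activity-regulated early genes, 12 had an unadjusted p under 0.05 with lower values and 0 with higher ones, and 7 passed the adjusted threshold in limma, against 7.49%, 7.44% and 1.03% of all genes. The 7 were Npas4, Nr4a1, Junb, Egr4 and Egr1, with Fos and Egr2, which are named after their values were seen. Most of them encode transcription factors that neurons induce within minutes of firing. edgeR called 6 of the 23 and DESeq2 8, where edgeR called 0.935% and DESeq2 2.12% of all genes. The list's median log2 difference was -0.25, against 0.0027 for all genes. This list too was chosen with earlier results of these data known, so its shares are a description and not a test. Npas4, a transcription factor of active neurons, fell by 1.16 on the log2 scale (SE 0.19, adjusted p = 0.00402, limma). It was 214 ± 49.96 normalized counts in controls, 108 ± 56.0 with duloxetine, 240.3 ± 57.1 with *R. flavefaciens* and 107 ± 45.6 with both (SD, n = 6). Nr4a1 fell by 0.64, Junb by 0.53 and Egr4 by 0.54. Without mice 8_4 and 11_4, 5 of the 23 passed, and with 1 mouse left out between 3 (2_1, 3_1, 5_3 or 11_3) and 10 (12_4) did, with 4 without 2_3 or 9_1. The numbers of all genes called in these fits are not given here, so whether the list moved apart from them cannot be read. Arc, Ier2, Ier5, Nr4a1 and Homer1 were also among the genes most like Dusp1, Dusp6, Spry4 or Spred1. None of the list was among those most like Spry2, the gene that passed. How high the closest r is for genes in general is not given here.

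Of 14 genes known as outputs of ERK, Egr1, which the early gene list also holds, passed in limma and edgeR. Its log2 difference was -0.56 (SE 0.12, adjusted p = 0.0302, limma), and DESeq2 called Phlda1 as well. Of all genes tested, limma called 1.03%, edgeR 0.935% and DESeq2 2.12%. Phlda1 and Ier3 had lower values at an unadjusted p under 0.05, as 7.49% of all genes did, with differences of -0.25 and -0.27. Ccnd1 had higher values at that level, with a difference of 0.14, as did 7.44% of all genes. The median of the list was 0.00057.

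For the average effect of duloxetine, no gene passed the adjusted threshold in the 4 lists of the machinery itself, by limma, edgeR or DESeq2. At an unadjusted p under 0.05 in limma, 7.49% of all genes were lower and 7.44% higher. Of 7 other MAP kinase phosphatases and Sprouty-family genes tested, Dusp14 had an unadjusted p under 0.05 and a difference of -0.23 (adjusted p = 0.0822, limma). Of that list, Dusp9 was under the minimum mean and Spry3 was not in the table. Of 24 genes of the cascade from Grb2 to ERK and its substrate kinases, 1 had an unadjusted p under 0.05 in limma, Rps6ka2, at -0.13, and the median was -0.011. Of 14 Ras GTPase activators and other negative regulators, 0 had such a p, with a median of 0.018. Of 25 receptors and ligands upstream of Ras, 1 did, Fgf2, at 0.18, with a median of 0.033. Whether the lists differed from each other was not tested. DESeq2 called Dusp14 with both treatments against *R. flavefaciens*, where it called 4.07% of all genes.

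**Figure D5:**
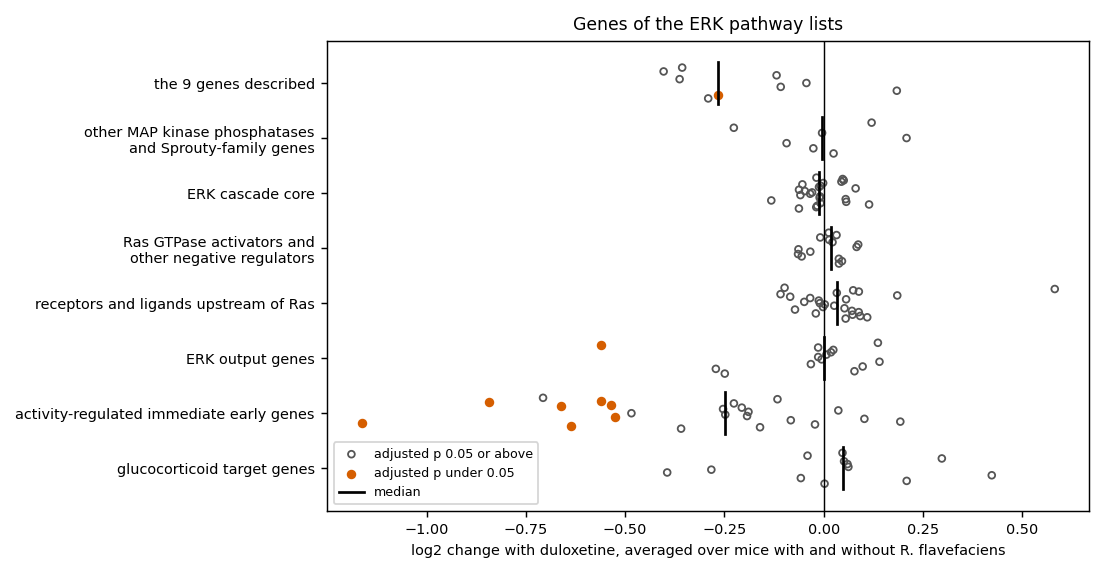
Log2 change with duloxetine, averaged over mice with and without *R. flavefaciens* (horizontal axis), of each gene in the pathway lists, with filled points for an adjusted p under 0.05 in limma and a line for the median. The medians of the 9 genes (-0.27) and of the activity-regulated early genes (-0.25) lie below 0, and those of the cascade core (-0.011) and of the ERK output genes (0.00057) lie close to it.

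Markers of other cell types and of cortical layers were set beside the effect of duloxetine. Of 88 marker genes in 13 lists, 0 passed the adjusted threshold by limma, edgeR or DESeq2. At an unadjusted p under 0.05 in limma, 6 of the 88 had higher and 2 lower values, where 7.44% of all genes were higher and 7.49% lower. Of these, 2 of 8 astrocyte markers (Slc1a2 and Aqp4) and 2 of 8 microglia markers (Cx3cr1 and P2ry12) had higher values, as did Rgs5 and Flt1 of 9 endothelial and pericyte markers, whereas Cldn5 of that list and Vip of 7 inhibitory neuron markers had lower ones. By direction alone, with no test, the values were higher for 8 of 8 microglia markers (median log2 difference 0.081), 5 of 5 blood markers (0.14), 8 of 9 endothelial and pericyte markers (0.092) and 8 of 9 oligodendrocyte markers (0.021). They were lower for 7 of 7 markers of meninges and fibroblasts (-0.11) and for 8 of 9 of the striatum (-0.10), and the astrocyte list was split, with 4 higher and 4 lower (0.023). In the lists for oligodendrocytes, their precursors, meninges and fibroblasts, choroid plexus, blood, striatum, excitatory neurons, upper layers and deep layers, 0 genes had an unadjusted p under 0.05. For duloxetine against control, where 2.2% of all genes were higher at an unadjusted p under 0.05, 4 of 8 microglia markers were, Tmem119, P2ry12, Cx3cr1 and C1qa, and 0 of the other 80 markers had such a p. The part of these shifts in the values of the 9 genes was not tested.

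The summed astrocyte markers averaged 64000.3 normalized counts in controls, 66014 with duloxetine, 61661 with *R. flavefaciens* and 71129 with both, of which Slc1a2 alone gave 49745, 51189, 46076 and 55023. The sum thus followed Slc1a2 and not the list, of which 6 of 8 markers had higher values with *R. flavefaciens* against control while the sum was lower. The summed microglia markers, of which Csf1r was the most abundant, averaged 4371, 4853, 4959 and 5106 in the same order. The summed excitatory neuron markers averaged 101553, 102625, 103086 and 105076.

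The same lists were read for *R. flavefaciens* against control, where none of the 9 genes had an unadjusted p under 0.05. At that level 10.8% of all genes were lower and 8.86% higher. Of the 24 genes of the cascade, 6 were lower and 1 higher by limma, and 0 passed the adjusted threshold in limma or edgeR, each of which called 0.0267% of all genes. Ksr2, a scaffold that holds the kinases of the cascade together, had a log2 difference of -0.34 (adjusted p = 0.0818, limma), Shc3 -0.40, Braf -0.26 and Hras 0.18. DESeq2 called Ksr2, with the lower values, and Hras, with the higher ones, where it called 3.32% of all genes. Mice given *R. flavefaciens* alone had 1200.0 ± 262 normalized counts of Ksr2 and controls 1483 ± 59.9 (SD, n = 6).

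Of the 14 negative regulators, 6 were lower and 1 higher at an unadjusted p under 0.05 in limma, where 10.8% of all genes were lower and 8.86% higher. Among them were Paqr3 at -0.33, Nf1, which encodes neurofibromin, at -0.25, Rasa2 at -0.16 and Pebp1 at 0.15, the last of which DESeq2 called. Of the 25 receptors and ligands, 5 were lower and 2 higher at that level, with the same shares of all genes. DESeq2, which called 3.32% of all genes, called 4 of the 25, the receptors Erbb4 (-0.34) and Ntrk3 (-0.27) and the ligands Nrg1 (-0.38) and Pdgfa (0.26). In neither list did a gene pass in limma or edgeR. Of the 7 other phosphatases and Sprouty-family genes 0 had an unadjusted p under 0.05 by any of the 3 tools. Of the 14 ERK output genes Phlda1 alone did, with higher values (0.31), and DESeq2 called it. By direction alone, 14 of the 23 activity-regulated early genes were higher and 9 lower. At an unadjusted p under 0.05 in limma 2 were higher and 0 lower, and 0 passed the adjusted threshold in limma.

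Marker genes were read in this comparison as well. By limma 17 of 88 markers were higher and 4 lower at an unadjusted p under 0.05, where 8.86% of all genes were higher and 10.8% lower. They included 5 of 8 microglia markers and 4 of 5 blood markers with higher values and 3 of 6 deep-layer markers with lower ones. None passed the adjusted threshold in limma or edgeR, and DESeq2 called 6 of the 88 against 3.32% of all genes, namely C1qa, C1qb, Pvalb, S100b, Sst and Tac1. Without mice 8_4 and 11_4, 4 cascade genes rather than 6 had lower values at an unadjusted p under 0.05. With a mouse left out, limma called 2 cascade genes without 8_3 or 9_1 and 4 without 9_2. The numbers of all genes in these fits are not given here, so whether the cascade moved apart from them cannot be read. The part of the markers in the differences of the pathway genes was not tested.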

How the data were processed

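Medial prefrontal cortex RNA was measured in 24 mice, 6 per group, by poly(A) selection and sequencing. Per the labels, the authors aligned the reads with TopHat2 2.1.0 and Bowtie2 2.2.6 and normalized the counts with DESeq2 1.18.1. The deposited values are a signal, read counts of each gene divided by a size factor of the library, for 15456 genes. The counter, its strand setting and the gene filter are not given in the sources used here, so that reads of a gene and of an antisense or overlapping gene cannot be told apart. The labels name the build mm9 and the study's methods GRCm38. The positions deposited for the genes match GENCODE vM21 on GRCm38 for 14253 of the 15438 genes whose ID was found there, and GRCm38 is used here. Dividing each mouse's values by the worth of 1 read gave whole reads, within 0.0051, for 99.9889% of 370875 values above 0, which allowed edgeR and DESeq2 to be run on the recovered reads.

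Values were tested as log2(normalized count + 1) in 14974 genes whose mean reached 10, in 1 limma fit over the 4 groups (limma 3.58.1 with its trend option, in R 4.3.3), so that a log2 change is on that scale. P-values were adjusted by Benjamini-Hochberg over all genes within each of the 8 comparisons, with a threshold of 0.05. Comparisons with the same reference group share its mice. A mean of 10 was required over all mice, not in each. Single pairs of groups were also compared by two-sided exact permutation tests of the difference of means. The fits were tested on simulated data with known changes. Chi-square values per degree of freedom over 60 pairs of mice within groups lay between 2.07 and 25.9, so that no pair looked like 1 library deposited again. Alternatives to these choices were quantile normalization, rescaling each mouse to the 75th percentile, a pseudocount of 0.1, a required mean of 50 or none, fitting the compared groups alone, edgeR 4.0.16, DESeq2 1.42.0, a random block for the first label number, an adjusted p under 0.1, each mouse left out, and, chosen after seeing the data, mice 8_4 and 11_4 left out together.

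The 9 genes and all lists were chosen with earlier results of these data known. The text names all 9, for each the 3 genes with the highest r, and of each list the genes with an unadjusted p under 0.05, at most 4 by smallest p. Python 3.11.15 with pandas 2.3.3 was used for the descriptions.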

Additional observations from a re-analysis of the deposited data

Results flagged for a closer look

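Of 36 sets of 6 mice (9 genes in 4 groups), 4 held a mouse farther from the other 5 than Dixon's 95% critical value allows, and chance flags about 1 in 20 sets. In the duloxetine group, mouse 5_1 had 1544 normalized counts of Dusp6, while the other 5 lay between 1036 and 1213. In the combined group, mouse 12_4 had 230.1 of Dusp5, while the others lay between 117 and 157. In the *R. flavefaciens* group, mouse 9_1 had 574 of Spry4, against 406 to 450.0. Among controls, mouse 2_3 had 988 of Spry2, against 859 to 907. All 4 were the highest of their group, and the same mice had the highest sum of activity-regulated early genes in theirs.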

How the results depend on the processing

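Spry2 kept its direction and its call for the average effect of duloxetine under all 9 other settings (log2 change -0.27 to -0.25) and with each mouse left out (adjusted p 0.00122 to 0.00934). With both treatments against *R. flavefaciens* it kept its call with each mouse left out, and lost it with only the groups compared (adjusted p = 0.0967). For the average effect of duloxetine, the number of the 9 genes called, 1, was 4 with DESeq2 and 4 at an adjusted p under 0.1. Among all genes, these settings called 317 and 374, rather than 154. With a mouse left out, the number of the 9 was from 1 to 5: 2 without 5_1 or 9_3 and 5 without 12_4. With both treatments against *R. flavefaciens*, the number of the 9 was 0 with only the groups compared, as was that of all genes. It was 3 at an adjusted p under 0.1, where 842 of all genes passed, and from 1 to 4 with a mouse left out (4 without 12_4). With both treatments against control, 0 of the 9 became 1 with DESeq2 and 1 at an adjusted p under 0.1, where 217 and 126 of all genes passed. With a mouse left out it was from 0 to 3 (1 without 12_3 and 3 without 12_4). Whether all genes moved alike with a mouse left out is not shown here. The cause of these shifts was not tested. Reversed were values near 0. For both treatments against duloxetine Spry2 was 0.0013 with quantile normalization, 0.0016 with rescaling to the 75th percentile and between -0.051 and 0.027 with a mouse left out. With a mouse left out, Dusp5 ranged from -0.11 to 0.093 and Spred1 from -0.038 to 0.054 for duloxetine against control, and Dusp5 from -0.20 to 0.070 for both treatments against control. The average effect of duloxetine kept its sign for both genes, but ranged from -0.19 to -0.055 for Dusp5 and from -0.082 to -0.0045 for Spred1.

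Among all genes, DESeq2 called 317 rather than 154 for duloxetine on average, 497 rather than 4 for *R. flavefaciens* against control, 361 rather than 4 for its average effect, 610 rather than 334 for both treatments against *R. flavefaciens*, 217 rather than 15 for both against control, and 1 rather than 0 for duloxetine against control and for both against duloxetine. The random block called 255, 221, 533 and 59 for duloxetine on average, *R. flavefaciens* against control, both against *R. flavefaciens* and both against control. Its estimated correlation between mice with the same first label number was -0.0451. Since that is below 0, these larger counts cannot be read as a correction for shared housing. Only the groups compared gave 0 for *R. flavefaciens* against control and for both against *R. flavefaciens*, and 196 for both against control, which was 30 with a minimum mean of 50, 23 with rescaling and 9 without mice 8_4 and 11_4. For the 4 called with *R. flavefaciens* against control and the 4 of its average effect, 2 and 1 were called without those mice, and 2 of its average effect with quantile normalization. For both against *R. flavefaciens*, 160 of 334 calls were higher, and 186 of 292 with rescaling. No paired analysis was possible because no mouse label is shared between groups: the first number is nested in them, and the second recurs within a group and numbers no pair. The effect of depth on the scarcest genes, such as Spry1, was not tested, and no file gives the cage of a mouse.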

Other observations

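Of 12 glucocorticoid target genes, 1 had lower and 2 had higher values with duloxetine on average at an unadjusted p under 0.05, where 7.49% of all genes were lower and 7.44% higher, and the list's median log2 difference was 0.049. Per1, a clock gene that is also induced by neuronal activity, differed by -0.28 (SE 0.073, adjusted p = 0.0543, limma), and DESeq2 called it, as it did 2.12% of all genes. It had 1666 ± 256 normalized counts in controls, 1383 ± 137 with duloxetine, 1733 ± 210.4 with *R. flavefaciens* and 1405 ± 220.0 with both (SD, n = 6). Tsc22d3, which encodes the glucocorticoid-induced leucine zipper, differed by 0.21 (adjusted p = 0.162, limma), and Sgk1, a kinase induced by glucocorticoids, by 0.42 (adjusted p = 0.186, limma). Sgk1 was spread widely within the groups, with 1110.0 ± 367 normalized counts with both treatments and 675 ± 140.1 in controls.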
